A study of Mus musculus with 6 samples.

Results

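The genes described here encode the subunits of oxidative phosphorylation, measured in mouse embryonic stem cells with and without 3 linker histones. They were chosen by name: probe sets that the platform annotation lists with 1 gene whose symbol starts with Nduf, Uqcr, Atp5 or Cox4 to Cox8, or is Sdha, Sdhb, Sdhc, Sdhd, Cyc1 or Cycs. The rule took 101 of the 12488 probe sets on the array, for 73 of 8251 genes, and all 101 carried the same symbol in the current mouse gene table. Of the probe sets, 38 belong to complex I (29 genes), 4 to the complex I assembly factors Ndufaf1 and Ndufaf4, 4 to complex II, 9 to complex III, 1 to cytochrome c, 23 to complex IV (15 genes) and 22 to ATP synthase (14 genes). The symbols took in the assembly factors, which are not subunits.

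Oxidative phosphorylation is the main route by which mitochondria make ATP. Complexes I and II pass electrons from NADH and succinate to ubiquinone, complex III passes them on to cytochrome c, and complex IV, cytochrome c oxidase, passes them to oxygen; complexes I, III and IV pump protons, and ATP synthase uses the returning protons to make ATP. Most subunits are encoded in the nucleus, and some of complex IV and of the ATP synthase ring exist as isoforms used in different tissues. Embryonic stem cells draw much of their ATP from glycolysis and carry mitochondria of immature shape, and their respiratory chain is nevertheless assembled and active.

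The samples were total RNA from exponentially growing embryonic stem cells of 3 kinds: null line 1 and null line 2, each lacking H1c, H1d and H1e, and wild type. Linker histones sit on the nucleosome at the entry and exit of its DNA and compact chromatin, and the study compared expression with and without these H1 genes, now named H1f2, H1f3 and H1f4. Each line had 2 Affymetrix arrays, labelled experiment 1 and experiment 2. The labels give no strain, passage, feeder layer or sex, and each null group is 1 line, so a difference between a null line and wild type cannot be told apart from a difference between lines. Whether the 2 arrays of a line stand for separate cultures is not stated, so every p-value is set against array-to-array spread that may be technical.

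Background was taken as the highest of 19 bacterial and yeast control probe sets on each array, 9.1 to 17.2 intensity units, against array medians of 34.1 to 39.5. H1f2 averaged 12.5 ± 1.51 intensity units in null cells (SD, n = 4) and 69.1 ± 1.27 in wild-type cells (SD, n = 2), a log2 difference of -2.30 ± 0.11 (SE, limma adjusted p = 0.00119). H1f3 and H1f4 were at background on every array and check nothing. The log2 ratio of 3' to 5' signal, a measure of RNA integrity, ran from -0.26 to -0.16 on null arrays and from -0.25 to -0.13 on wild-type arrays for Gapdh. For Actb it ran more widely on null arrays, from 0.21 to 0.40, than on wild-type arrays, from 0.26 to 0.28. All 12 embryonic stem cell markers listed were above background on every array. Of these, 8 had higher values in null cells, and Fbxo15, a gene known to be active in undifferentiated cells, passed the test with a log2 difference of 1.05 (limma adjusted p = 0.0465). Their summed signal was 8860 to 9745 on null arrays and 8344 to 8422 on wild-type arrays. Of 20 fibroblast markers, which feeder cells would bring, 11 were tested and 9 of these had lower values in null cells. The other 2, Col1a1 and Col1a2, had log2 differences of 0.01 and 0.12. Of the 20 markers, 11 were above background on every array and none was at background on every array. Their summed signal was 2304 to 2617 on null arrays and 3033 to 3098 on wild-type arrays. The part that either list played in the results below was not tested.

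The respiratory chain was well represented in these cells. Of the 101 probe sets, 80 (79.2%) lay above background on all 6 arrays, against 59.5% of all probe sets, 10 on some arrays and 11 on none. At least 1 probe set was above background on every array for 68 of the 73 genes. The test took probe sets whose mean over the 6 arrays reached 20.9 intensity units, which 79 members for 68 genes did (78.2%), and the other 22 members have values but no test. Complex IV had the smallest share above background on every array of the complexes with more than 4 probe sets, 14 of 23 (60.9%), while every probe set of complexes II and III was.

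In the null cells, the oxidative phosphorylation genes stayed close to their wild-type levels. No member passed an adjusted p of 0.05 with limma in the mean of the null lines against wild type, where 31 of 7453 probe sets (0.416%) did; the smallest adjusted p of a member was 0.262, for Ndufaf1. At an unadjusted p under 0.05 there were 5 members, 6.33% of those tested, against a background of 12.7%: Ndufaf1, Ndufa5, Uqcr10 and Atp5c1 with higher values in null cells and Cox4i1 with lower ones. Leaving out 1 array at a time, that count of 5 became 0 without the wild-type array of experiment 2, 1 without the line 2 array of experiment 1, and 4 to 6 otherwise. For 78 of the 79 members the 95% interval of the log2 difference lay within a 2-fold change in either direction. The same held for 6872 of all 7453 probe sets tested. The exception among the members was a dim probe set of Ndufa3 with discordant arrays. In bulk RNA, fewer cells expressing a gene and less of its RNA per cell cannot be told apart.

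Within that narrow range the differences leaned to one side. The null mean was above wild type for 52 of the 79 members (65.8%) and below it for 27, whereas 47.3% of all probe sets tested were above. The median log2 difference of the members was 0.052 and that of all probe sets tested -0.015. The filter used the mean over the 6 arrays, 4 of them null, so null values weighed more in deciding which dim probe sets were tested. Without the filter, 61 of the 101 members were above wild type and 40 below. Their median was then 0.044, against -0.035 for all probe sets. Leaving out 1 array at a time, the member median ran from 0.024, without the line 2 array of experiment 1, to 0.079, without that of experiment 2, and it was 0.078 without the wild-type array of experiment 1. All 4 null arrays lay above both wild-type arrays for 19 members (24.1%), against 11% of all probe sets, and below both for 2 (2.5%), against 12%. Compared within experiment 1 alone the median member difference was 0.08, with 55 members above wild type, and within experiment 2 it was 0.04, with 47. Only 36 of the 79 were above wild type in both. The medians of all probe sets tested were 0.008 within experiment 1 and -0.033 within experiment 2. The members share samples and tissue, so these counts describe the genes and carry no test.

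**Figure D1:**
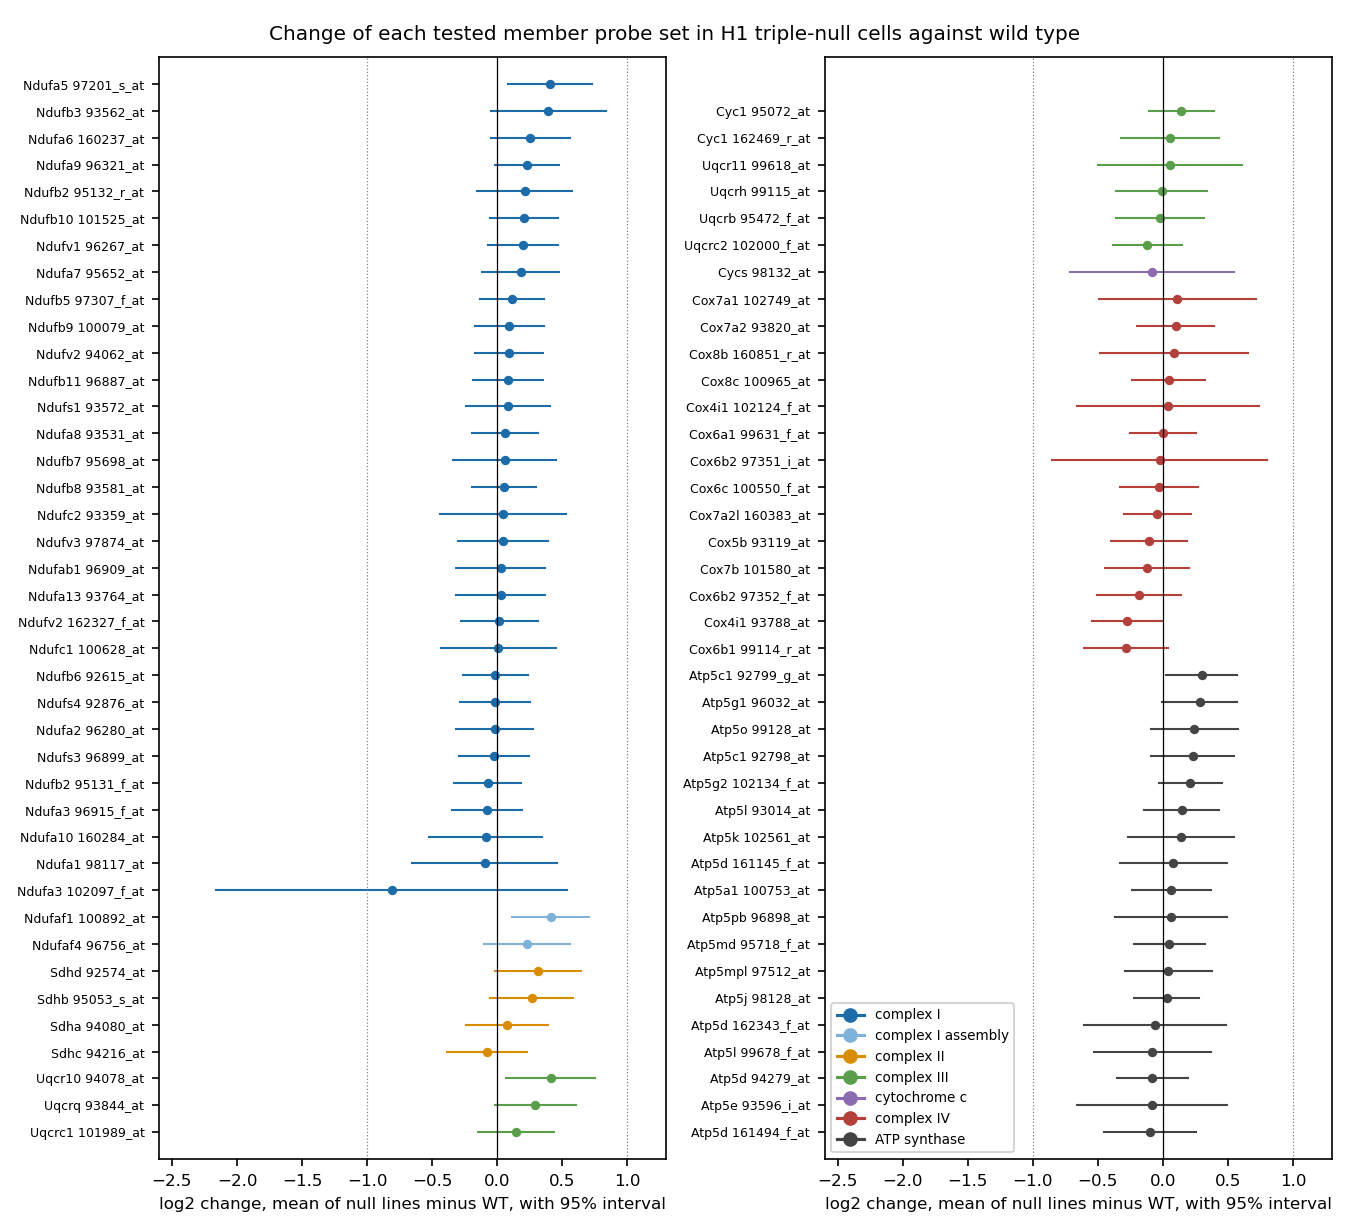
Log2 difference of each of the 79 tested probe sets, mean of the null lines minus wild type, on the log2(value + 2) scale; points are limma estimates, lines are 95% intervals, colours mark the complex, and dotted lines mark a 2-fold change. Only the Ndufa3 probe set 102097_f_at has an interval that passes a dotted line, and complex IV is the only complex with more than 1 probe set whose points lie more often below 0 than above it, with 8 of 14 below; after median centring 7 of the 14 lie above 0.

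Complex IV was set beside the other complexes. Outside complex IV, 46 of 65 members were above wild type, with a median log2 difference of 0.06, and 19 had all 4 null arrays above both wild-type arrays. In complex IV 6 of 14 tested members were above and the median was -0.03. No tested member had all null arrays above both wild-type arrays, and 1, Cox6b1, had all of them below. Below the filter, Cox5a on 161490_at had all null arrays above, at no more than 8.0 intensity units. Outside the rule, so did 99660_f_at, listed for Cox7c and Gm12338. As shares of the 14 tested, 42.9% were above wild type, 0% had all null arrays above and 7.1% had all below. Over all probe sets tested the shares were 47.3%, 11% and 12%, so complex IV lay near that background. With the brightest probe set of each gene, 6 of 12 complex IV genes were above wild type, and after median centring 7 of the 14 probe sets were. The contrast with the other complexes was noticed in the data and was not tested. The median of complex IV lay below that of the other members under each alternative listed for the null mean, each array left out included, between -0.09 and 0.00 against 0.04 to 0.10. Some of these alternatives could not move the medians. The experiment block, the mean-variance trend and the null arrays taken as 1 group leave each estimate unchanged. The alternative without the filter was read over the same 14 and 65 probe sets.

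**Figure D2:**
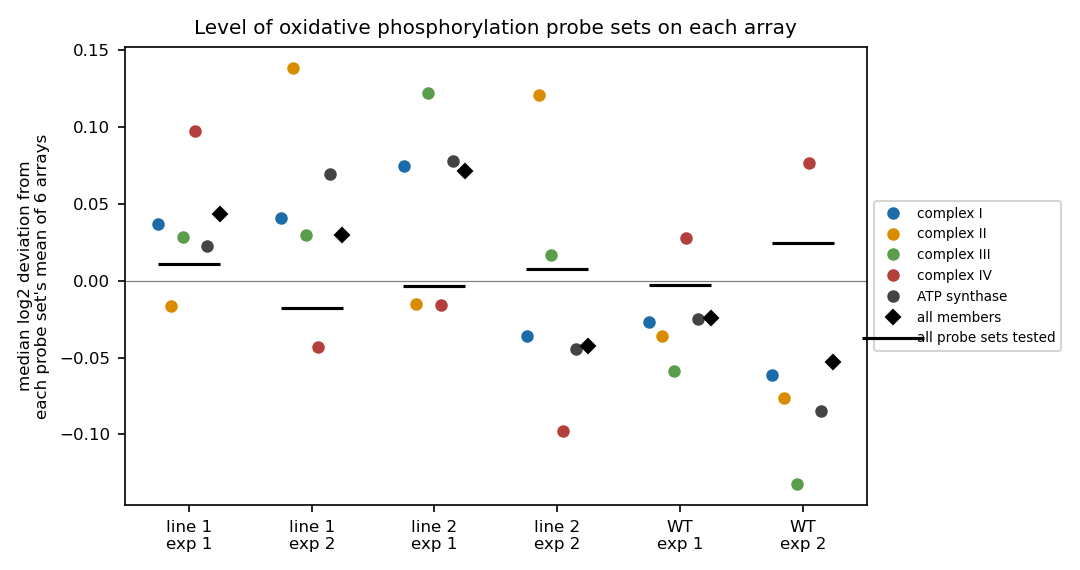
Median log2 deviation of tested probe sets from their own mean over the 6 arrays, by array, for 5 complexes, all 79 members and all 7453 probe sets tested. The member median is 0.04, 0.03 and 0.07 on the first 3 null arrays, -0.04 on null line 2 in experiment 2, and -0.02 and -0.05 on the wild-type arrays, while the complex IV median is highest on null line 1 in experiment 1 and on the wild-type array of experiment 2.

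Transcription of many nuclear respiratory genes is known to depend on nuclear respiratory factor 1 (NRF1), on the ETS family factor GABP, also called NRF2, and on YY1, so the start sites of the members were searched for the letters these factors are known for. RefSeq windows of GRCm38.p6, from 250 bases before to 50 after each start, were found for 59 of the 73 genes. On either strand, GCGCANGCG for NRF1 stood in the windows of 16 member genes (27.1%), against 16.4% of 4521 other genes tested on the arrays and 7.0% of 26966 other genes in the promoter table. The ETS letters CCGGAAG stood in 27.1% of member genes, against 21.2% and 9.9%, and AANATGGC for YY1 in 22.0%, against 10.7% and 6.9%. TATAAA stood in 10.2%, against 9.5% and 15.7%, and CCAAT in 42.4%, against 43.2% and 41.1%. At least 1 of the letters for NRF1, ETS or YY1 was present in 64.4% of member genes, against 39.9% and 20.7%. A match on 1 strand of the NRF1 letters can overlap a match on the other, as in Cox6a1, and a gene was counted once. A match is a description of sequence and does not show that a factor binds.

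The windows of 6 members are shown because they span the range of differences among genes with a match and give 1 gene without: Ndufa5, Sdhd and Atp5c1, with all null arrays above wild type; Cycs and Cox6a1, which carry the NRF1 letters and did not separate; and Ndufaf1, which separated and has the ETS letters, but neither the NRF1 nor the YY1 letters, in its window. Of each window a stretch of 100 bases is printed, so a match elsewhere is not shown, such as the ETS letters of Cox6a1 at -16. Capitals mark the NRF1 letters GCGCANGCG and the ETS letters CCGGAAG, on either strand. All 6 genes lie on the minus strand and the sequences read 5' to 3' on that strand.
Ndufa5, chr6:24527662-24527761: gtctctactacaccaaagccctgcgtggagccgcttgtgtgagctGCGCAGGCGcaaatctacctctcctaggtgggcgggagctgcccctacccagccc
Sdhd, chr9:50603874-50603973: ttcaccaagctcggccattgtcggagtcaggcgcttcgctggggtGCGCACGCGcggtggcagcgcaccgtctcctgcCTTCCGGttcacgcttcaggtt
Atp5c1, chr2:10080403-10080502: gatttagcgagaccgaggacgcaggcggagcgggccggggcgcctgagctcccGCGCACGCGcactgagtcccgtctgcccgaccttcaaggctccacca
Cycs, chr6:50566576-50566675: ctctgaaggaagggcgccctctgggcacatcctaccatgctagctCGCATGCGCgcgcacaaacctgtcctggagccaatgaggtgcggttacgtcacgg
Cox6a1, chr5:115349066-115349165: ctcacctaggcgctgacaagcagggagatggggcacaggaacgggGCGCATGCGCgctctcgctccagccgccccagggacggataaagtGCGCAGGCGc
Ndufaf1, chr2:119662805-119662904: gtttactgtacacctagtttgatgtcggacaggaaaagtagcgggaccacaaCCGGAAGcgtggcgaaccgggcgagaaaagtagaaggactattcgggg

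Member genes with the NRF1 letters lay higher in null cells than those without. Taking the brightest tested probe set of each gene, the median log2 difference was 0.17 for the 16 genes with a match, 15 of them above wild type and 8 with all null arrays above both wild-type arrays. It was 0.04 for the 39 genes without, 24 of them above wild type and 9 with all null arrays above. Within experiment 1 the medians were 0.17 with a match and 0.06 without, and within experiment 2 they were 0.17 and 0.02. Without complex IV the medians were 0.204 over 15 genes with a match and 0.045 over 31 without. Among genes that are not members the median was 0.013 for 740 genes with a match and -0.015 for 3781 without. Of these, 52.4% with a match and 47.6% without were above wild type, 11.8% of either had all null arrays above both wild-type arrays, and 9.9% and 13.1% had all of them below. Of the 5 motifs searched, NRF1 was singled out after the values were seen, and the split has no test. For the ETS letters the medians were 0.05 with a match and 0.08 without, and for the YY1 letters 0.06 with and 0.06 without. All null arrays lay above both wild-type arrays for 3 of 15 member genes with the ETS letters and 14 of 40 without. For YY1 they did for 4 of 12 and 13 of 43. Among genes that are not members, the medians were 0.024 with the ETS letters and -0.019 without, and 0.022 and -0.014 for YY1. The member medians were 0.07 and 0.06 for TATAAA and 0.05 and 0.06 for CCAAT.

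**Figure D3:**
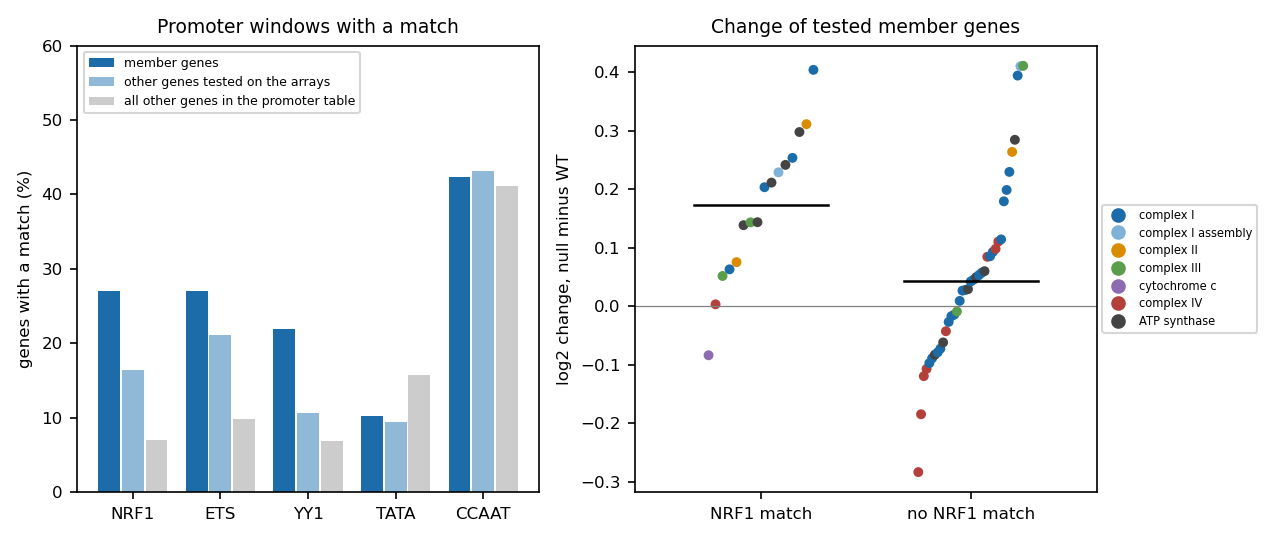
Left, percentage of genes whose promoter window holds each motif, for the member genes, the other genes tested on the arrays and all other genes in the promoter table. Right, log2 difference of each tested member gene, null mean minus wild type, by presence of the NRF1 letters, coloured by complex, with a line at the median: 15 of 16 genes with a match lie above 0, against 24 of 39 without.

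Complex I, the NADH dehydrogenase, had 31 tested probe sets, 22 of them above wild type in the null mean, with a median log2 difference of 0.05. All null arrays lay above both wild-type arrays for 8 of them and below for 1. These are 25.8% and 3.2%, against 11% and 12% of all probe sets tested. Ndufa5, a subunit of the arm that reaches into the matrix, had signals of 321.5 and 324.9 in null line 1, 364.7 and 361.3 in null line 2, and 292.5 and 228.1 in wild type. The groups did not overlap, and the 2 wild-type arrays differed from each other more than the arrays of either null line did. Its log2 difference was 0.40 ± 0.13 (SE, limma adjusted p = 0.302). Ndufa9, which sits where the matrix arm joins the membrane arm, measured 561 ± 16.1 intensity units in null cells (SD, n = 4) and 478 ± 3.89 in wild-type cells (SD, n = 2), a log2 difference of 0.23 ± 0.10 (SE, limma adjusted p = 0.424). Ndufa6, which binds the mitochondrial acyl carrier protein within the complex, measured 137 ± 12.5 in null and 114 ± 4.46 in wild-type cells, a log2 difference of 0.25 ± 0.12 (SE, limma adjusted p = 0.458).

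Ndufb3, an accessory subunit of the membrane arm, gave 370.3 and 419.6 in line 1, 306.7 and 276.8 in line 2, and 313.8 and 211.0 in wild type. Line 1 was above both wild-type arrays, whereas line 2 lay between them. Ndufb10, of the same arm, gave 360.9 and 335.2 in line 1, 401.2 and 376.4 in line 2, and 325.1 and 313.0 in wild type, a log2 difference of 0.20 ± 0.11 (SE, limma adjusted p = 0.487). Ndufa7 gave 1431.4, 1655.3, 1530.2 and 1411.6 on the null arrays and 1386.6 and 1271.7 on the wild-type arrays. The other complex I genes whose null arrays all lay above wild type, named for that reason, were Ndufv1, which binds NADH and the flavin (993 ± 53.9 in null, 865 ± 51.9 in wild type), the iron-sulfur subunit Ndufv2 (688 ± 29.7 and 645 ± 0.636) and Ndufb5 (1084 ± 63.1 and 999.9 ± 2.97), with log2 differences of 0.20, 0.09 and 0.11.

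The 2 assembly factors, which help to build complex I and are not part of the finished enzyme, had the highest median of the groups, 0.32. Ndufaf1 had signals of 114.3 and 129.7 in line 1, 115.8 and 107.2 in line 2, and 92.6 and 82.0 in wild type, a log2 difference of 0.41 ± 0.12 (SE, limma adjusted p = 0.262). Ndufaf4 had 54.0 and 45.0 in line 1, 59.3 and 49.2 in line 2, and 44.8 and 42.7 in wild type, a log2 difference of 0.23 ± 0.14 (SE, limma adjusted p = 0.533). Both were above wild type on every null array, Ndufaf4 by 0.2 intensity units on the closest pair. Of all probe sets tested, 11% had all null arrays above both wild-type arrays. The group holds only these 2 tested probe sets. The 13 tested assembly factors of other names had a median of 0.08. Ndufaf1 and Ndufaf4 each have a further probe set, 161507_f_at for Ndufaf1 and 161353_r_at for Ndufaf4, that was below the filter.

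Complex II, succinate dehydrogenase, also a citric acid cycle enzyme, had a median log2 difference of 0.17 over its 4 genes. Sdhd, which anchors it in the membrane, gave 546.5 and 572.6 in line 1, 572.9 and 574.8 in line 2, and 518.2 and 401.6 in wild type, a log2 difference of 0.31 ± 0.14 (SE, limma adjusted p = 0.422). Sdhb, its iron-sulfur subunit, gave 419.6 and 496.9 in line 1, 459.1 and 523.6 in line 2, and 373.4 and 415.1 in wild type, a log2 difference of 0.26 ± 0.13 (SE, limma adjusted p = 0.463). Null and wild-type arrays did not overlap for these 2 genes, 50% of those tested, against 11% of all probe sets with all null arrays above. They overlapped for the flavoprotein Sdha, at 108 ± 10.1 in null and 102 ± 0.283 in wild-type cells, and for the other membrane anchor, Sdhc, at 436 ± 41.8 and 459 ± 22.6.

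Complex III passes electrons from ubiquinol to cytochrome c. Of its 9 probe sets 6 were above wild type in the null mean, and 3 had all null arrays above both wild-type arrays. The 3 are 33.3% of those tested, against 11% of all probe sets. Uqcr10, a small accessory subunit, gave 670.4 and 657.8 in line 1, 824.9 and 689.9 in line 2, and 592.3 and 477.4 in wild type, a log2 difference of 0.41 ± 0.14 (SE, limma adjusted p = 0.316). Uqcrq, another small subunit, measured 1109 ± 118 in null cells (SD, n = 4) and 902 ± 55.8 in wild-type cells (SD, n = 2), a log2 difference of 0.29 ± 0.13 (SE, limma adjusted p = 0.422). Cyc1, the cytochrome c1 that hands electrons to cytochrome c, measured 1592 ± 60.6 in null and 1443 ± 20.8 in wild-type cells on 95072_at, a log2 difference of 0.14 ± 0.10. Its second probe set, 162469_r_at, had overlapping groups and a difference of 0.05 ± 0.16. The core protein Uqcrc2 had a log2 difference of -0.12 ± 0.11 and Uqcrc1 one of 0.14 ± 0.12. Cycs, the somatic cytochrome c, gave 145.3 and 76.1 in line 1, 135.0 and 110.0 in line 2, and 126.3 and 114.3 in wild type. The arrays of line 1 spanned all the others, and its log2 difference was -0.08 ± 0.26 (SE).

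**Figure D4:**
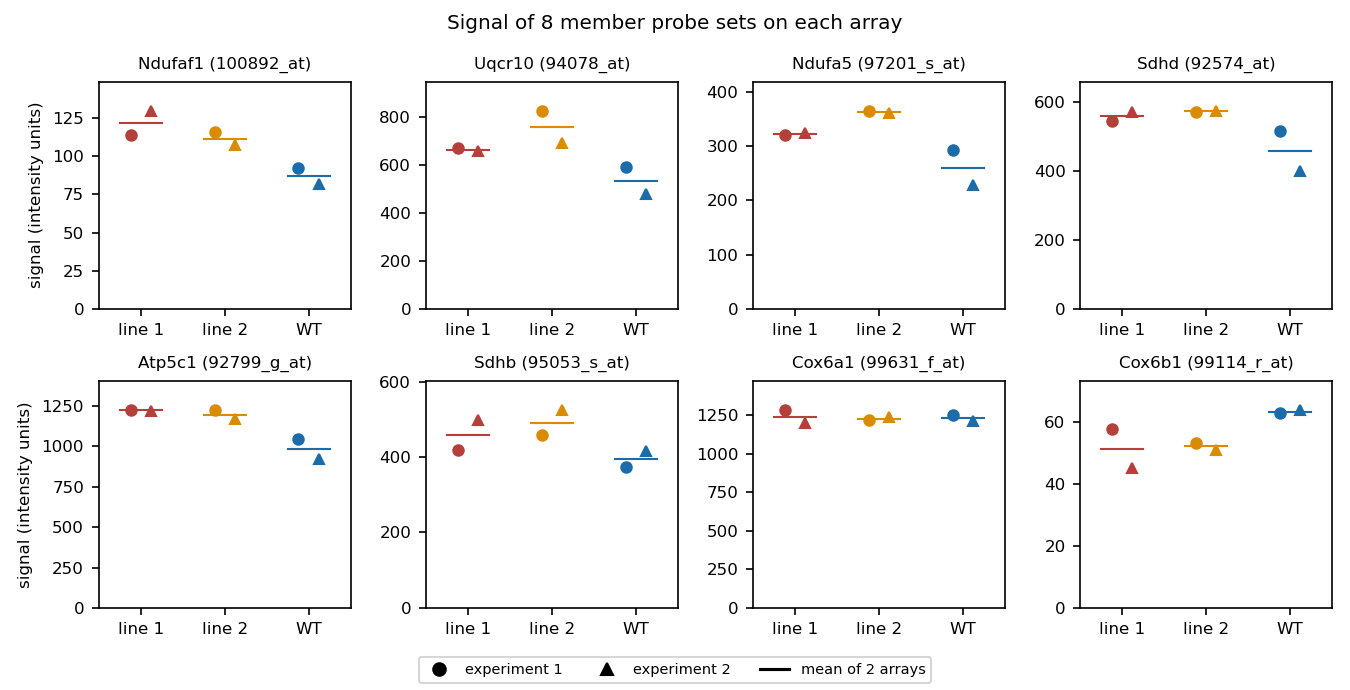
Signal of 8 member probe sets on each array, in intensity units on axes that start at 0; circles are experiment 1, triangles experiment 2 and lines the mean of the 2 arrays of a line. For the first 6 genes every null array lies above both wild-type arrays, for Cox6a1 the groups overlap, and for Cox6b1 every null array lies below both wild-type arrays.

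Complex IV reduces oxygen and is where tissue isoforms are most developed. The isoforms of most tissues gave signal for several subunits: Cox6a1 1279.5 and 1196.5 in line 1, 1217.1 and 1236.1 in line 2, and 1248.7 and 1209.7 in wild type, and Cox7a2 1230 ± 68.8 in null and 1151 ± 113 in wild-type cells. Cox6a1 differed by 0.00 ± 0.10 on the log2 scale (SE), with a 95% interval of -0.25 to 0.26. Cox6c on 100550_f_at measured 1470 ± 119 in null and 1496 ± 52.9 in wild-type cells, and Cox5b, the zinc-binding subunit, 686 ± 51.3 and 737 ± 3.46. Neither separated the groups. Cox6b1, the general isoform of the subunit that helps to join the dimer, had 57.5 and 45.1 in line 1, 53.2 and 50.9 in line 2, and 62.6 and 63.6 in wild type, a log2 difference of -0.28 ± 0.13 (SE, limma adjusted p = 0.439). It was the only complex IV gene tested whose null arrays all lay below wild type.

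Other isoforms were at or near background in every line. Cox8a, the general isoform of its subunit, did not exceed 8.3 intensity units on any array. Both probe sets of Cox5a, an obligatory subunit, were below the filter; 160438_at reached at most 18.6 and 161490_at at most 8.0. The heart and muscle isoform Cox6a2 reached at most 11.6. A probe set at background gives only a bound on its own signal and says nothing of the amount of the subunit.

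Several probe sets listed for isoforms named for other tissues did give signal. Of these, 97352_f_at carries a letter that marks probes shared within a family of similar sequences, so its signal cannot be assigned to Cox6b2 alone. Cox6b2, known as the testis isoform, had signals of 312.7 and 320.5 in line 1, 256.1 and 228.0 in line 2, and 282.4 and 350.5 in wild type on 97352_f_at. On 97351_i_at it averaged 208 ± 75.8 in null and 202 ± 30.2 in wild-type cells, while 160813_r_at was below the filter. Cox8c, another testis isoform, had 152.2 and 160.7 in line 1, 147.7 and 139.8 in line 2, and 134.9 and 156.7 in wild type on 100965_at, and at most 6.9 on 161475_f_at. The muscle isoforms did so at a low level: Cox7a1 measured 21.8 ± 4.81 in null and 20.25 ± 6.86 in wild-type cells, and Cox8b 50.95 ± 9.09 and 48.55 ± 15.2 on 160851_r_at. The second probe set of Cox8b, 161205_at, was below the filter, at 2.6 to 12.1 in null and 10.5 and 13.9 in wild-type cells. Null and wild-type arrays overlapped for each of these isoforms, although both line 2 arrays of Cox6b2 on 97352_f_at lay below both wild-type arrays, a line 2 difference of -0.38 ± 0.15 (SE, limma adjusted p = 0.35). Of 18 listed muscle genes, 7 were at background on every array and 5 were tested; the summed signal of the list was 649 to 747 on null arrays and 746 to 862 on wild-type arrays, and its part in these values was not tested.

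**Figure D5:**
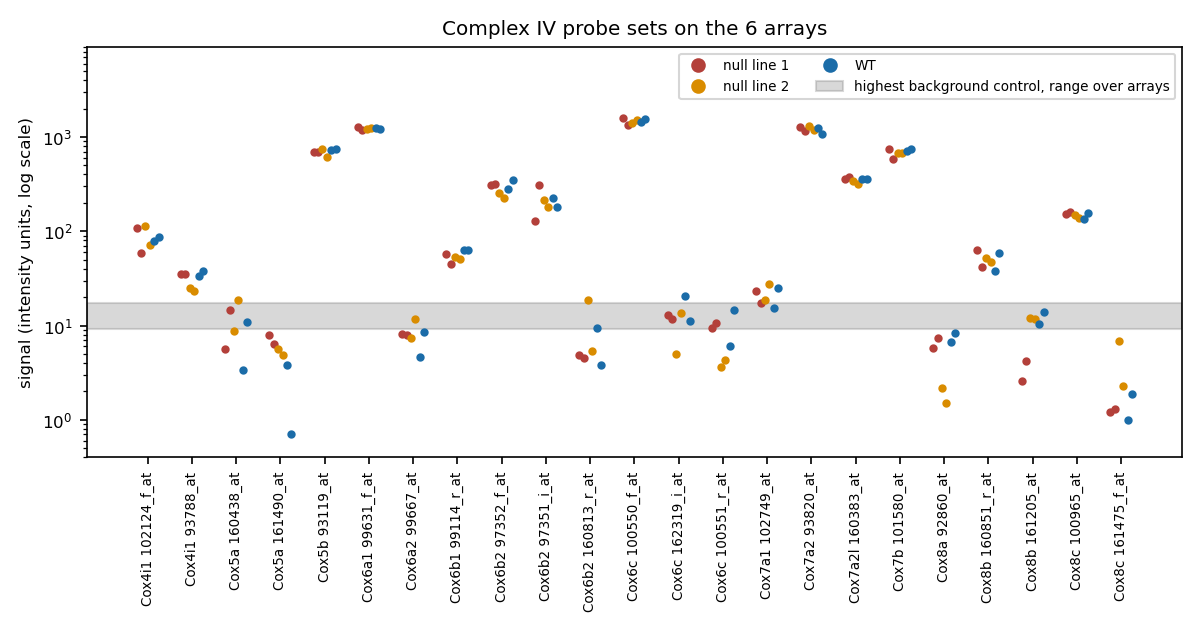
Signal of the 23 complex IV probe sets on the 6 arrays, in intensity units on a log scale, with null line 1, null line 2 and wild type from left to right for each probe set; the grey band is the range over arrays of the highest background control, 9.1 to 17.2. Cox5a, Cox6a2 and Cox8a lie in or below the band apart from single arrays, whereas 97352_f_at for Cox6b2 and 100965_at for Cox8c lie above it on every array.

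ATP synthase had 18 tested probe sets, 13 above wild type in the null mean, with a median log2 difference of 0.06. All null arrays were above wild type for 4 of them, 1 probe set each of Atp5c1, Atp5g1, Atp5g2 and Atp5o. The 4 are 22.2% of those tested, against 11% of all probe sets. Atp5c1, the gamma subunit that turns in the central stalk, gave 1223.0 and 1221.8 in line 1, 1222.4 and 1167.2 in line 2, and 1047.9 and 921.1 in wild type on 92799_g_at, a log2 difference of 0.30 ± 0.11 (SE, limma adjusted p = 0.353). On 92798_at the difference was 0.23 ± 0.13 with overlapping arrays. Atp5g1 and Atp5g2 encode the same ring subunit with different import signals. Atp5g2 on 102134_f_at measured 235 ± 1.95 in null and 203 ± 1.13 in wild-type cells, and Atp5g1 on 96032_at 36.1 ± 4.99 and 29.1 ± 0.283, with log2 differences of 0.21 ± 0.10 and 0.28 ± 0.12 (limma adjusted p = 0.45 and 0.398). Each has a second probe set, dim and just below the filter, whose mean was not higher in null cells: 92570_at for Atp5g2 measured 19.2 ± 1.98 in null and 23.25 ± 2.33 in wild-type cells, and 161324_r_at for Atp5g1 20.1 ± 3.33 and 21.6 ± 1.98. Atp5o, which links the stator to the catalytic head, measured 653 ± 64.7 in null and 551 ± 47.9 in wild-type cells. Atp5a1, the alpha subunit of that head, had overlapping arrays and a difference of 0.06 ± 0.13. Atp5d, a subunit of the central stalk, had 4 tested probe sets with differences between -0.10 and 0.08. Its other probe set, 161047_at, was below the filter and near background, with 5.5 and 16.6 in line 1, 14.4 and 12.2 in line 2, and 24.2 and 22.3 in wild type, so that all null arrays lay below both wild-type arrays.

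Where a gene had more than 1 tested probe set, these could be set against each other. Of 21 genes with several probe sets, 9 had at least 2 tested, and for 4 of them, Atp5d, Atp5l, Cox4i1 and Ndufb2, the sign of the difference depended on the probe set. Cox4i1, the general isoform of its subunit, had a difference of -0.27 ± 0.11 on 93788_at (limma adjusted p = 0.389) and 0.04 ± 0.29 on 102124_f_at. Ndufa3 had a difference of -0.08 ± 0.11 on 96915_f_at, with 445.0, 427.2, 485.9 and 436.1 on the null arrays and 457.4 and 489.7 on the wild-type arrays. Both carry a letter that marks probes shared within a family of similar sequences. On 102097_f_at Ndufa3 gave 31.8 and 5.3 in line 1, 27.8 and 28.6 in line 2, and 35.3 and 37.2 in wild type, a log2 difference of -0.81 ± 0.55 (SE, limma adjusted p = 0.596). Without the line 1 array of experiment 2 the difference was -0.26 (limma adjusted p = 0.431). With the line 1 array of experiment 1 left out, this probe set passed the threshold, with limma adjusted p = 0.0466 in the null mean.

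Each null line was also compared with wild type, using the same wild-type arrays. In line 1 no member passed an adjusted p of 0.05 with limma, against 0.134% of all probe sets, and 3 had an unadjusted p under 0.05, Ndufb3, Ndufaf1 and Atp5c1, against a background of 9.49%. The median log2 difference was 0.08, with 56 members above wild type and 23 below. In line 2 no member passed, against 0.255% of all, and 7 had an unadjusted p under 0.05, against 14.1%. Those with higher values were Ndufa5, Ndufaf1, Uqcr10, Uqcrq and Atp5g1, and those with lower values were Cox4i1 (93788_at) and Cox6b2 (97352_f_at). On their other tested probe sets the line 2 differences were 0.13 ± 0.33 (SE) for Cox4i1 and -0.03 ± 0.39 for Cox6b2. The median of all members in line 2 was 0.02, with 44 members above wild type and 35 below, and it ran from -0.007 without the line 2 array of experiment 1 to 0.125 without that of experiment 2. Leaving out 1 array at a time, the count at an unadjusted p under 0.05 ran from 0, without the wild-type array of experiment 2, to 7, without the line 1 array of experiment 1, in line 1, and from 1, without the wild-type array of experiment 2, to 6 in line 2. Cox4i1 on 93788_at had the smallest adjusted p of a member in line 2, 0.19 with limma, and a log2 difference of -0.53 ± 0.13 (SE).

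The null lines did not differ detectably from each other in these genes. No member passed an adjusted p of 0.05 with limma between line 1 and line 2, against 0.0268% of all probe sets, the smallest adjusted p being 0.618, and 4 members had an unadjusted p under 0.05, against 7.55%. Leaving out 1 array at a time, that count ran from 2, without the line 2 array of experiment 2, to 7, without the line 1 array of experiment 1. All 4 had higher values in line 1: Ndufa1, Ndufa13, Cox4i1 (93788_at) and Cox6b2 (97352_f_at). The other tested probe set of Cox4i1, 102124_f_at, had a difference between the lines of -0.18 ± 0.33 (SE). That of Cox6b2, 97351_i_at, had one of 0.01 ± 0.39. Ndufa13, also known as GRIM-19, gave 184.5 and 222.8 in line 1, 155.5 and 128.0 in line 2, and 171.2 and 161.0 in wild type, which lay between the null lines. Its log2 difference between the lines was 0.52 ± 0.16 (SE), with a 95% interval of 0.12 to 0.91. Cox4i1 on 93788_at had 35.2 and 35.4 in line 1, 25.3 and 23.2 in line 2, and 33.8 and 38.0 in wild type, so that line 1 lay within the wild-type values and line 2 below them. The 95% interval was within a 2-fold change for 76 of the 79 members and for 6651 of all 7453 probe sets tested. The median member difference was 0.01.

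The arrays of the second experiment gave slightly lower member signals than those of the first. The median log2 difference, experiment 2 minus experiment 1, was -0.06, against 0.00 for all probe sets, and 56 of 79 members were negative. The median ran from -0.073 with either line 1 array left out to -0.036 with either line 2 array left out, and was -0.039 with either wild-type array left out. No member passed an adjusted p of 0.05 with limma, and neither did any other probe set (0%); 1 member, Ndufc1, had an unadjusted p under 0.05, against 6.78%. The experiment 2 array was below that of experiment 1 in all 3 lines for 20 members, against 14% of all probe sets, and above it in all 3 for 5, against 14.6%. Ndufc1, a small membrane-arm subunit of complex I named for this comparison, had 362.2, 287.1 and 324.3 in experiment 2 and 414.7, 406.6 and 403.1 in experiment 1, in line 1, line 2 and wild type in that order. Each experiment holds all 3 lines. Arrays of the same line differed less for members, with a median SD of 0.13 on the log2 scale, than for all probe sets, with 0.16.

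Other mitochondrial genes were taken from lists that hold no member, and no test set them against the members. Of 13 tested regulators of mitochondrial biogenesis, none passed an adjusted p of 0.05 with limma and 1 had an unadjusted p under 0.05, Ssbp1, the single-stranded DNA binding protein of mitochondria; their median log2 difference was 0.00. Ssbp1 measured 356 ± 29.4 in null and 267 ± 13.7 in wild-type cells. Of 16 tested genes of the citric acid cycle and pyruvate dehydrogenase, none passed, 12 were above wild type and the median was 0.14. Pdhb, Idh3g and Suclg2 had unadjusted p under 0.05, with log2 differences of 0.35 ± 0.12, 0.33 ± 0.12 and 0.29 ± 0.10. Over all probe sets tested, 12.7% had an unadjusted p under 0.05, and the counts of the lists here were not tested against that share. The medians were 0.08 for 13 assembly factors of other names, 0.01 for 17 carriers and related proteins, and 0.05 for 18 genes of mitochondrial protein import, and none of these genes passed the threshold. At an unadjusted p under 0.05 there were 0 assembly factors, 2 carriers and related proteins, Slc25a20 with higher and Ckmt1 with lower values in null cells, and 0 import genes.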

How the data were processed

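The authors deposited linear array intensities computed with MAS5, as the submitters' processing notes record (version not given in the sources used here). Trimmed means of the 6 arrays were nearly equal, at 99.98, so the deposited scaling was kept; 66 control probe sets were not tested. Values were tested as log2(value + 2), which understates the change of dim genes, for the 7453 probe sets whose mean reached the 40th percentile. One limma 3.58.1 model in R 4.3.3 (lmFit, eBayes), with a mean per line over all 6 arrays, had 3 residual and 3.17 prior degrees of freedom; experiment 2 was set against experiment 1 in a fit with an experiment term. P-values were adjusted by Benjamini-Hochberg over all 7453, with a threshold of 0.05. The smallest two-sided p of an exact permutation test of 2 arrays against 4 would be 0.0667. The number of arrays limits the precision. The procedure was tested on simulated data. Genes were named by rank of p within each complex, isoform, several probe sets or background level; others carry their reason. The members, gene lists and motifs were chosen with earlier results of these data known. Alternatives covered pseudocount, filter, scaling, variance model, experiment block and each array left out. Promoters are RefSeq windows of GRCm38.p6. Figures used matplotlib 3.10.9 in Python 3.11.15.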

Additional observations from a re-analysis of the deposited data

How the results depend on the processing

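The number of members called was 0 in every comparison under every alternative, except when the line 1 array of experiment 1 was left out: leaving out 1 array at a time, the count ran from 0 to 1 in the null mean and from 0 to 1 in line 1, and the 1 call was Ndufa3 on 102097_f_at, whose only remaining line 1 value was the low one (log2 differences of -1.37 and -2.39). The median member difference of line 2 against wild type ran from -0.007 to 0.125 with 1 array left out, and was 0.081 over the 53 tested members whose identifier has no letter before _at, an alternative chosen after seeing the data; that of line 1 minus line 2 ran from -0.037 to 0.081. A fit with the replicate block, the experiment number, called 0 members, with 14 calls among all probe sets against 31. It could not change the member median of 0.052, because each experiment holds every line. The experiment differences of the lines correlated by 0.053 to 0.095 over all tested probe sets, and by -0.181, -0.094 and 0.272 over the members, so not every pair was over 0.1 and the numbers were not taken to pair the arrays. Among all probe sets, calls in the null mean ran from 7 with either wild-type array left out to 101 with a mean-variance trend, and were 64 with the filter at the 60th percentile, 54 with a pseudocount of 16, 15 with a background floor and 8 with no filter. Members with all null arrays above both wild-type arrays numbered 16 after quantile normalization and 20 after median centring, against 19. Of 829 values of named members under alternatives in the null mean, 47 changed sign, in 21 members whose difference was at most 0.111. A lone array left in a line was assumed to vary like the other lines. What limits these results is the number of arrays and, for the 22 members below the filter, signal near background. The cause of these shifts was not tested.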

Other observations

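A further 10 probe sets are listed with a member gene together with another gene or pseudogene and so fell outside the rule. For 3 of them all null arrays lay above both wild-type arrays: 99660_f_at, listed for Cox7c and Gm12338, at 3504 ± 150 in null (SD, n = 4) and 3253 ± 8.27 in wild-type cells (SD, n = 2); 92800_i_at, for Atp5c1 and its pseudogene, at 1736 ± 95.9 and 1499 ± 52.0; and 96611_at, for Ndufa11 and Ndufa11b, at 446 ± 34.0 and 383 ± 32.1. For none did all null arrays lie below. Over all probe sets tested, 11% had all null arrays above and 12% had all below. None passed an adjusted p of 0.05 with limma, and none had an unadjusted p under 0.05.

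Cyct, the testis form of cytochrome c, whose symbol the rule does not take, was measured on 92929_at. It gave 55.5 and 51.3 in line 1, 74.2 and 65.6 in line 2, and 23.8 and 16.5 in wild type. The log2 difference was 1.53 ± 0.16 (SE, limma adjusted p = 0.0344). The wild-type mean, 20.15, was below the filter of 20.89, so the null arrays brought this probe set into the test. In wild type, 16.5 in experiment 2 was below that array's highest background control, 17.2, while 23.8 in experiment 1 was above 9.2. The size of the difference therefore rests on a wild-type level near background. The tested probe sets of the testis isoforms of complex IV, Cox6b2 and Cox8c, were above background in null and wild-type cells and did not pass the limma threshold. Each gene also had a probe set below the filter. That of Cox6b2 was at background on most arrays and that of Cox8c on every array.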
